A study of Mus musculus with 16 samples.

Results

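The amino acid transporter genes of E14TG2a mouse embryonic stem (ES) cells were followed in 4 groups held at high, low or endogenous Nodal/Activin signalling. The genes were taken by symbol, as those starting with Slc1a, Slc3a, Slc6a, Slc7a, Slc16a10, Slc36a, Slc38a or Slc43a, and each gene was represented by its probe with the highest mean intensity over all arrays. The rule found 59 genes with 80 probes, of 15967 named genes and 24606 probes on the array. Of these, 58 encode transporters, and the remaining member, Slc7a6os, is an opposite-strand gene that encodes no transporter and enters only through its symbol.

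E14TG2a is an established ES cell line that grows without feeder cells. Before treatment every culture spent 6 h in KSR medium to which 10 µM SB-431542 (SB) was added, a small molecule that blocks the kinase of the Activin and Nodal type I receptors. For the next 18 h signalling was set high by 25 ng/ml Activin, kept low by 10 µM SB, or left at its endogenous level, either with DMSO at a dilution of 1 in 5000 (the vehicle control) or in KSR medium with no addition. The KSR medium of every group held 20% knockout serum replacement, 100 µM non-essential amino acids and 2 mM GlutaMAX, and no LIF, so all groups shared 1 supply of amino acids at the start. Each group holds 4 cultures, taken at passages 20, 21, 23 and 24, with 1 Illumina BeadChip array per culture and 16 arrays in all. The cultures of a group are passages of 1 line and not independent lines, so p-values measure the spread between cultures of different passages.

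Amino acids cross the plasma membrane through carriers of several solute carrier (Slc) families. Some couple the movement to sodium or protons, and others exchange an amino acid inside the cell for another outside. The light chains of the Slc7 family reach the cell surface only when bound to a heavy chain of the Slc3 family, while the cationic amino acid carriers of the same family work without one. Several transporter genes are also targets of Atf4, the transcription factor that is translated when amino acids run short or the endoplasmic reticulum is under stress, and mouse ES cells depend on threonine, glutamine and other amino acids for growth.

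Array means of intensity ran from 486 to 760, and the lowest was the KSR array of passage 21. A probe counted as above background where it was brighter than the 95th percentile of the array's 1191 taste, olfactory and vomeronasal receptor probes. The treatments showed in the known targets Lefty1 and Lefty2. In SB Lefty2 was above background on 0 of 4 arrays and at least 8.62-fold lower than in DMSO (adjusted p = 4.97e-12), and Lefty1 was above it on 1 of 4 and 28.8-fold lower once dim SB values were raised to the dimmest probe above background of their array (adjusted p = 4.79e-15). On the log2 scale Lefty1 rose with Activin against DMSO by 1.29 (adjusted p = 0.00192) and Lefty2 by 1.56 (adjusted p = 5.11e-04). All 7 measured ES cell markers, among them Pou5f1 and Nanog, were above background. Of 9 fibroblast markers, 6 were above background on 0 arrays, Col1a1 and Col1a2 among them. Of 8 primitive endoderm markers, Sox17, Sox7 and Foxa2 were above background on 0 arrays, and Dab2 and Gata4 on all 16. In bulk RNA of this kind fewer cells of a type and less RNA per cell cannot be told apart.

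Transcripts of 25 members (42.4%) were above background on 4 or more arrays, beside 43.7% of all probes. Of these, 18 were above it on all 16 arrays and 7 on 4 to 15, while 5 members passed on 1 to 3 arrays and 29 on none. A probe below background sets only a bound on its transcript. By family, the 25 comprised 3 of 7 glutamate and neutral amino acid carriers (Slc1), 1 of 2 heavy chains, 3 of 10 light chains and 2 of 5 cationic carriers. They were also 3 of 9 Slc6 carriers of neurotransmitters, taurine and creatine, 2 of 8 Slc6 carriers of amino acids, 6 of 10 sodium-coupled neutral carriers (Slc38), 2 of 4 proton-coupled carriers (Slc36), 1 of 2 Slc43 carriers Slc16a10, a carrier of aromatic amino acids, and Slc7a6os. The cystine exchanger light chain Slc7a11 was above background on 0 arrays, and Slc7a1, the widely expressed cationic carrier, on 1.

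The members with high intensity on these arrays included the cationic carrier Slc7a3 (5031 to 10998 over the 16 arrays), the large neutral amino acid light chain Slc7a5 (4377 to 9297) and the taurine carrier Slc6a6 (3524 to 5237). The system A carriers Slc38a2, known to be induced when amino acids are withdrawn, and Slc38a4, an imprinted gene, ran from 2672 to 4936 and from 2204 to 3709. Values of different probes are not comparable as levels, since each probe binds with its own strength. From here on, levels are log2 values after background correction and normalization, given in the order of passages 20, 21, 23 and 24.

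Inhibition of signalling lowered 2 of the 59 members. Slc7a7 and Slc6a15 fell in SB against the DMSO control, by 1.65-fold and 1.53-fold, and no member rose. Over all probes 0.211% were lower and 0.0975% higher in SB at the same threshold. The median log2 change of the members was 0.008, against 0.000 for all probes, and 31 of 59 changes were above 0. At an unadjusted p under 0.05 stood 7 members (11.9%), beside 5.75% of all probes.

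Slc7a7 encodes y+LAT1, a light chain that pairs with Slc3a2 and exchanges cationic amino acids such as arginine and lysine for neutral amino acids and sodium. Its intensity was 1361, 1241, 1380 and 2020 in the SB cultures and 2560, 2475, 2498 and 2729 in the DMSO cultures. With Activin it was 2974, 3575, 3706 and 3372, and in KSR medium alone 2860, 2042, 2584 and 3551. Every SB culture lay below every culture of the other 3 groups.

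On the log2 scale Slc7a7 stood at 10.61, 10.57, 10.48 and 10.94 in SB and at 11.38, 11.42, 11.32 and 11.37 in DMSO. The Activin cultures gave 11.69, 11.79, 11.74 and 11.59, and the KSR cultures 11.54, 11.50, 11.29 and 11.59. The DMSO values spread over the narrowest range of the 4 groups, the Activin values all exceeded them, and the KSR values overlapped DMSO and reached the lowest Activin value.

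The means of Slc7a7 were 10.65 ± 0.20 in SB, 11.37 ± 0.04 in DMSO, 11.48 ± 0.13 in KSR and 11.70 ± 0.08 in Activin (SD, n = 4). The fall with SB was 0.72 in size (log2 change -0.72, SE 0.09, adjusted p = 1.29e-04), and it was seen in 4 of 4 passages. With this probe it passed under all 19 alternative settings (log2 change -0.82 to -0.67, adjusted p from 1.18e-05 to 0.0166). The study listed Slc7a7 among its changed genes on these same arrays, so the call is not independent evidence. The list holds changed genes for which the study also reported binding of phosphorylated Smad2 in or near the gene, from ChIP-Seq. Binding was not examined here. A second, dimmer Slc7a7 probe was above background on 0 arrays and gave a log2 change of -0.10 (adjusted p = 0.997).

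**Figure D1:**
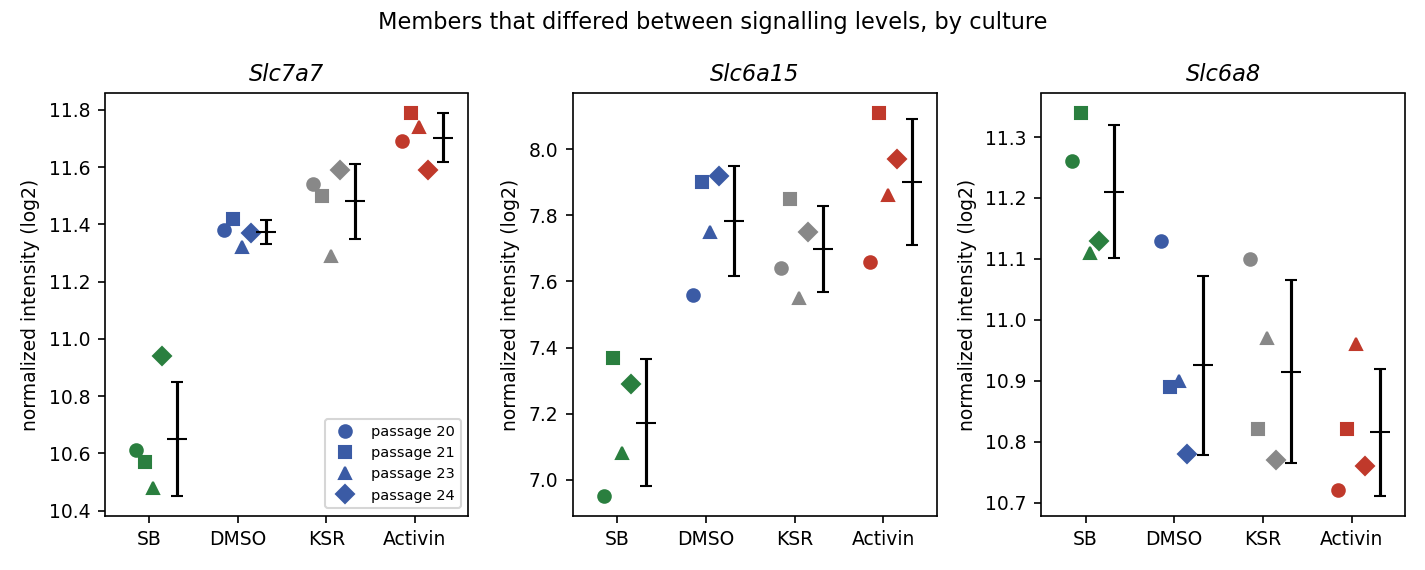
Normalized intensity (log2) of Slc7a7, Slc6a15 and Slc6a8 by group, with a point per culture shaped by passage and a black bar for the mean ± SD (n = 4). The SB cultures lie below all others for Slc7a7 and Slc6a15, and the SB and Activin cultures do not overlap for Slc6a8.

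Several start sites are annotated for Slc7a7. The window from 250 bases before to 50 bases after a start is shown for the start whose window held both motifs searched, because Slc7a7 was the member with the lowest adjusted p in SB. The sequence is from RefSeq on GRCm38.p6, chr14:54417653-54417952, minus strand, 5′ to 3′. Capitals mark CAGAC or its reverse complement GTCTG, the core bound by Smad proteins, and TGATGCAA, a composite element bound by C/EBP and ATF factors.
Slc7a7: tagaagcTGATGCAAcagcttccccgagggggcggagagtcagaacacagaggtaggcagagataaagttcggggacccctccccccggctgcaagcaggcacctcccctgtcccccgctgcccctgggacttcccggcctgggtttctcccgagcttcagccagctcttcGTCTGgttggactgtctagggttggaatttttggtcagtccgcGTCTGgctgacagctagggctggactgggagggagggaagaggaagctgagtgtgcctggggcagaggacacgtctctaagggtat
CAGAC was searched on both strands and stood in 49.6% of 32851 windows of this length, and in 37 of the 62 windows that belong to members. TGATGCAA, also searched on both strands, stood in 0.895% of all windows and in 4 of the 62, which belong to Slc7a7, Slc1a4 and Slc7a11. A match of letters does not show that a factor binds there.

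Slc6a15 encodes a sodium-dependent carrier of branched-chain amino acids and proline that is best known from neurons. Its intensity was 40.3, 74.4, 55.9 and 79.4 in SB and 104, 149, 136 and 169 in DMSO. It was 108, 205, 160 and 190 with Activin, and 120, 112, 111 and 149 in KSR medium. The SB cultures again lay below every other culture, and 2 of the 4 SB arrays were above background.

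In log2 values Slc6a15 was at 6.95, 7.37, 7.08 and 7.29 in SB, 7.56, 7.90, 7.75 and 7.92 in DMSO, 7.66, 8.11, 7.86 and 7.97 in Activin, and 7.64, 7.85, 7.55 and 7.75 in KSR. Within each group the culture of passage 20 was the lowest or next to the lowest. The means were 7.17 ± 0.19, 7.78 ± 0.16, 7.90 ± 0.19 and 7.70 ± 0.13 in the same order (SD, n = 4). The log2 change with SB was -0.61 (SE 0.11, adjusted p = 0.00691), and with dim SB values set no lower than the dimmest probe above background of their array the fold was 1.46. The offset of the background correction compresses changes at this intensity.

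The Slc6a15 call did not pass with the authors' normalized values (log2 change -1.20, adjusted p = 0.113), with intensities floored at 16 (adjusted p = 0.0773), or without the arrays of passage 23 (adjusted p = 0.162) or passage 24 (adjusted p = 0.0883). Its 2 other probes, both below background, gave -0.04 and -0.08. Once passage entered the fit as a block, the adjusted p was 4.14e-05.

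Of the 25 members above background, the other 23 ranged from -0.24 to 0.29 in SB against DMSO, and the smallest adjusted p of any member that was not called was 0.303. At the ends of that range stood Slc7a3 (-0.24, SE 0.10, adjusted p = 0.751) and the creatine carrier Slc6a8 (0.29, SE 0.09, adjusted p = 0.46). Slc7a3 was at 13.02, 12.56, 12.77 and 12.96 in SB and at 13.23, 13.16, 12.83 and 13.03 in DMSO, so the groups overlapped, though SB was below DMSO in 4 of 4 passages. The heavy chain Slc3a2, with which Slc7a7 pairs, changed by 0.19 (adjusted p = 0.974). Of the light chains that pair with the same heavy chain, Slc7a6 changed by -0.20 (adjusted p = 0.868) and Slc7a5 by 0.01 (adjusted p = 0.999).

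**Figure D2:**
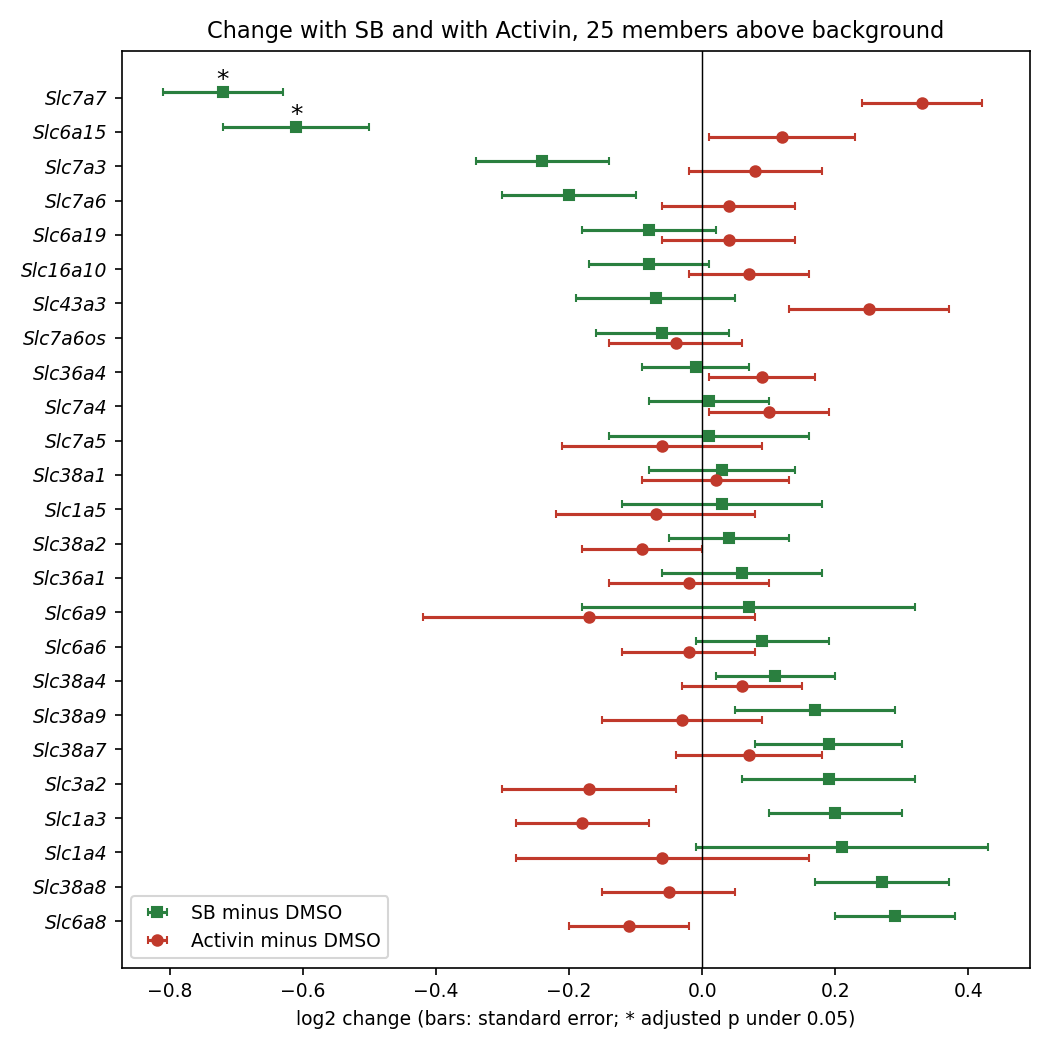
Log2 change ± SE of the 25 members that passed background on at least 4 arrays, in SB minus DMSO (green squares) and Activin minus DMSO (red circles), ordered by the change with SB. The asterisks at Slc7a7 (-0.72) and Slc6a15 (-0.61) mark adjusted p under 0.05.

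Some cell type markers moved with SB as well. Of the ES cell markers Tdgf1, a co-receptor for Nodal, changed by -0.99 (adjusted p = 0.00123), and 0 of 9 fibroblast and 0 of 8 primitive endoderm markers passed. Of 10 trophectoderm markers Tfap2c rose by 0.61 on the log2 scale (adjusted p = 0.0067) and Gata3, above background on 4 SB arrays and 0 DMSO arrays, was at least 1.22-fold higher (adjusted p = 0.00431), while Elf5, Hand1 and Ascl2 were above background on 0 arrays. The other trophectoderm markers did not pass. Among these, Cdx2, Krt7 and Krt18 had higher means in SB than in DMSO. Eomes and Krt8 had lower ones (7.14 against 7.26 and 8.55 against 8.77). The median log2 change of the 10 markers was 0.08. The mean level of the trophectoderm list was 7.60 to 7.83 in SB, 7.57 to 7.67 in DMSO and 7.57 to 7.65 in Activin. Their part in the fall of Slc7a7 and Slc6a15 was not tested.

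With Activin 0 of 59 members passed against DMSO, beside 0.0203% of all probes in either direction. In limma 3 members (5.08%) had an unadjusted p under 0.05, beside 3.59% of all probes. The fit with a passage block called 0 of them. Among members above background the largest change was that of Slc7a7 (0.33, SE 0.09, 1.26-fold), which was positive in 4 of 4 passages with an unadjusted p of 0.00182 and an adjusted p of 0.995 (0.457 with the block). Slc43a3, a carrier of purine nucleobases placed in the family by sequence, followed with 0.25 (SE 0.12), and Slc6a15 changed by 0.12 (SE 0.11). Members above background spanned -0.18, at the glutamate carrier Slc1a3, to 0.33.

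The vehicle itself was compared through DMSO minus KSR. No member was called in limma, and neither was any probe of the array (0%), with 2 members (3.39%) and 803 probes (3.26%) at an unadjusted p under 0.05. The largest change of a member was 0.23 in size, and the members above background spanned -0.21 (Slc43a3) to 0.19 (Slc38a9, a lysosomal arginine sensor).

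Activin and SB, the extremes of signalling, were compared directly, on the same arrays that enter the comparisons with DMSO. Slc7a7 and Slc6a15 were higher with Activin and Slc6a8 was lower, 3 of 59 members in all, beside 0.581% of all probes higher and 0.317% lower. The change of Slc7a7 was 1.05 (SE 0.09, 2.08-fold, adjusted p = 1.49e-07) and that of Slc6a15 was 0.73 (SE 0.11, 1.66-fold, adjusted p = 3.43e-04). Both passed under all 19 alternative settings with these probes. Their dimmer probes, above background on 0 arrays, did not pass (Slc7a7 0.11, adjusted p = 0.912, and Slc6a15 0.07 and 0.08, adjusted p = 0.978 and 0.966).

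Slc6a8 carries creatine into the cell with sodium and chloride. It stood at 10.72, 10.82, 10.96 and 10.76 with Activin and at 11.26, 11.34, 11.11 and 11.13 with SB. The DMSO cultures (11.13, 10.89, 10.90 and 10.78) overlapped both of these, and the KSR cultures (11.10, 10.82, 10.97 and 10.77) overlapped Activin. Activin and SB did not overlap, and the log2 change was -0.39 (SE 0.09, 1.31-fold, adjusted p = 0.0399). The call was lost under 14 of 19 alternatives, among them leaving out the Activin array of passage 20, 21 or 24 (adjusted p = 0.149, 0.096 and 0.134) or the SB array of passage 20 or 21 (adjusted p = 0.125 and 0.165).

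In the fit that blocks on passage, 8 members passed between Activin and SB, beside 1.78% of all probes. The added members were Slc1a3 (-0.38, adjusted p = 0.035 with the block, 0.0761 without it), Slc38a8, a glutamine carrier (-0.32, 0.0242 and 0.21), Slc43a3 (0.32, 0.0219 and 0.40), and the pair Slc1a1 and Slc38a5. Slc1a1, a glutamate carrier, and Slc38a5, a glutamine carrier, changed by -0.39 and 0.35 (adjusted p = 0.0244 for each with the block), but they were above background on 0 and 1 of 16 arrays.

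Slc1a3, which takes up glutamate with sodium, was at 8.95, 8.91, 8.99 and 8.91 with Activin and at 9.53, 9.20, 9.49 and 9.07 with SB. Every SB value exceeded every Activin value. The change was left uncalled under 17 of 19 alternative settings (adjusted p up to 0.564). Besides the block, it passed only without the SB array of passage 24 (log2 change -0.47, adjusted p = 0.0153). That array held the SB value nearest to Activin. The heavy chain Slc3a2 was at 9.70, 9.39, 9.11 and 9.32 with Activin and at 9.74, 10.04, 9.49 and 9.69 with SB, an overlap, although SB exceeded Activin in 4 of 4 passages, with a change of -0.36 (SE 0.13, adjusted p = 0.327).

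Slc7a3 gave 13.11, 13.20, 13.08 and 13.20 with Activin, all above its 4 SB values, with a change of 0.32 (SE 0.10, adjusted p = 0.192). It did not pass with the block either (adjusted p = 0.0787). The median change of the members between Activin and SB was -0.029, against -0.002 for all probes, and 12 members (20.3%) were at an unadjusted p under 0.05, beside 7.71% of all probes.

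Members also differed among passages. The cultures of 1 passage share their source across the 4 groups, so a test among passages asks whether sister cultures deviate together and not what passage number does. Of the 59 members 10 (16.9%) differed among passages after the treatments were fitted, against 7.17% of all probes. They were Slc6a9, Slc1a4, Slc7a5, Slc1a5, Slc38a7, Slc43a3, Slc6a15, Slc6a6, and the dim Slc7a2 and Slc36a2, which were above background on 0 arrays. Against the mean of the other passages, 5 members were higher in passage 24 and 1 lower, while 2.73% of all probes were higher and 2.25% lower. The lower member was the dim Slc7a2 (-0.27, adjusted p = 0.0168), and with the authors' normalized values it was Slc38a8 instead. Passage 24 was singled out because earlier results of these data set it apart, so p-values of this comparison are not independent evidence.

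Slc6a9 encodes the glycine carrier GlyT1. It stood at 8.58, 8.10, 8.90 and 9.07 in the Activin cultures and at 9.11, 8.24, 8.83 and 9.40 in the SB cultures. In DMSO it was 8.94, 8.23, 8.84 and 9.28, and in KSR 8.71, 7.98, 8.84 and 9.19. Passage 21 was the lowest and passage 24 the highest in all 4 groups.

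The passage means of Slc6a9 were 8.84 ± 0.24, 8.14 ± 0.12, 8.85 ± 0.03 and 9.24 ± 0.14 (SD, n = 4), so passage 24 was 2.14-fold over passage 21. The difference among passages had an adjusted p of 4.3e-07. Against the mean of the other passages, passage 24 was higher by 0.63 (SE 0.07, 1.54-fold, adjusted p = 1.13e-05), a call that stood under all 12 alternatives. Its treatment changes were small beside this, 0.07 with SB and -0.17 with Activin (SE 0.25 each). These SEs are from the fit without passage, so the passage differences add to them.

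Slc1a4 encodes ASCT1, an exchanger of alanine, serine and cysteine. Its values were 10.58, 9.96, 10.65 and 10.99 with Activin, 10.94, 10.37, 10.85 and 11.12 with SB, 10.73, 10.02, 10.74 and 10.93 with DMSO, and 10.69, 9.83, 10.88 and 10.86 in KSR. Passage 21 was again the lowest in every group, and passage 24 the highest in 3 of 4. Passage 24 was 1.91-fold over passage 21, and the difference among passages had an adjusted p of 2.02e-06. Against the other passages, passage 24 was higher by 0.46 (SE 0.07, adjusted p = 3.95e-04), but without the passage 21 arrays by 0.22 (adjusted p = 0.066).

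The window at the start of Slc1a4 is shown because it holds TGATGCAA, and Slc1a4 is 1 of 3 members with these letters anywhere in a window. It is from RefSeq on GRCm38.p6, chr11:20332664-20332963, minus strand, 5′ to 3′, with the reverse complement of TGATGCAA in capitals.
Slc1a4: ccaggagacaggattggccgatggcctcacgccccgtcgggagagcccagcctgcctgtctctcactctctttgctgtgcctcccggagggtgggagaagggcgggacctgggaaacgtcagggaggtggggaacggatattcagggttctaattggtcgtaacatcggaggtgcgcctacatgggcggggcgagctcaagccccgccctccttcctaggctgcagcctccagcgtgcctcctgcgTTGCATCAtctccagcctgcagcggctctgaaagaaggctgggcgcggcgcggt
The element begins 4 bases before the annotated start. The windows of Slc6a9 did not hold these letters.

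Slc7a5 encodes LAT1, the light chain that brings in leucine and other large neutral amino acids. It stood at 12.78, 12.41, 12.97 and 13.02 with Activin, 12.97, 12.35, 13.03 and 13.10 with SB, 12.94, 12.51, 12.90 and 13.07 with DMSO, and 12.87, 12.61, 12.98 and 12.95 in KSR. Passage 21 was the lowest in all 4 groups, by more than the range of the other 3 passages. The difference among passages had an adjusted p of 4.17e-04. Passage 24 was higher by 0.26 (SE 0.06, adjusted p = 0.0201), a call lost under 5 of 12 alternatives. Without the passage 21 arrays the change was 0.10 (adjusted p = 0.384). The other losses came with an offset of 16 and without the Activin, SB or DMSO group. Its partner Slc3a2 did not pass among passages (adjusted p = 0.061), with means of 9.68, 9.65, 9.33 and 9.63.

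Slc1a5, the glutamine exchanger ASCT2, had another profile. It was 9.04, 9.06, 8.99 and 9.54 with Activin, 9.16, 9.05, 9.25 and 9.58 with SB, 9.14, 8.96, 9.30 and 9.52 with DMSO, and 9.00, 9.00, 8.99 and 9.57 in KSR. Passage 24 was the highest in every group, above all 12 cultures of the other passages. It was higher by 0.47 (SE 0.06, 1.39-fold, adjusted p = 1.04e-04), and this stood under all 12 alternatives. Slc38a7, which exports glutamine and asparagine from lysosomes, was also highest at passage 24 in all 4 groups (9.35, 9.39, 9.21 and 9.37 in Activin, SB, DMSO and KSR), with a change of 0.29 (SE 0.07, adjusted p = 0.0108).

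**Figure D3:**
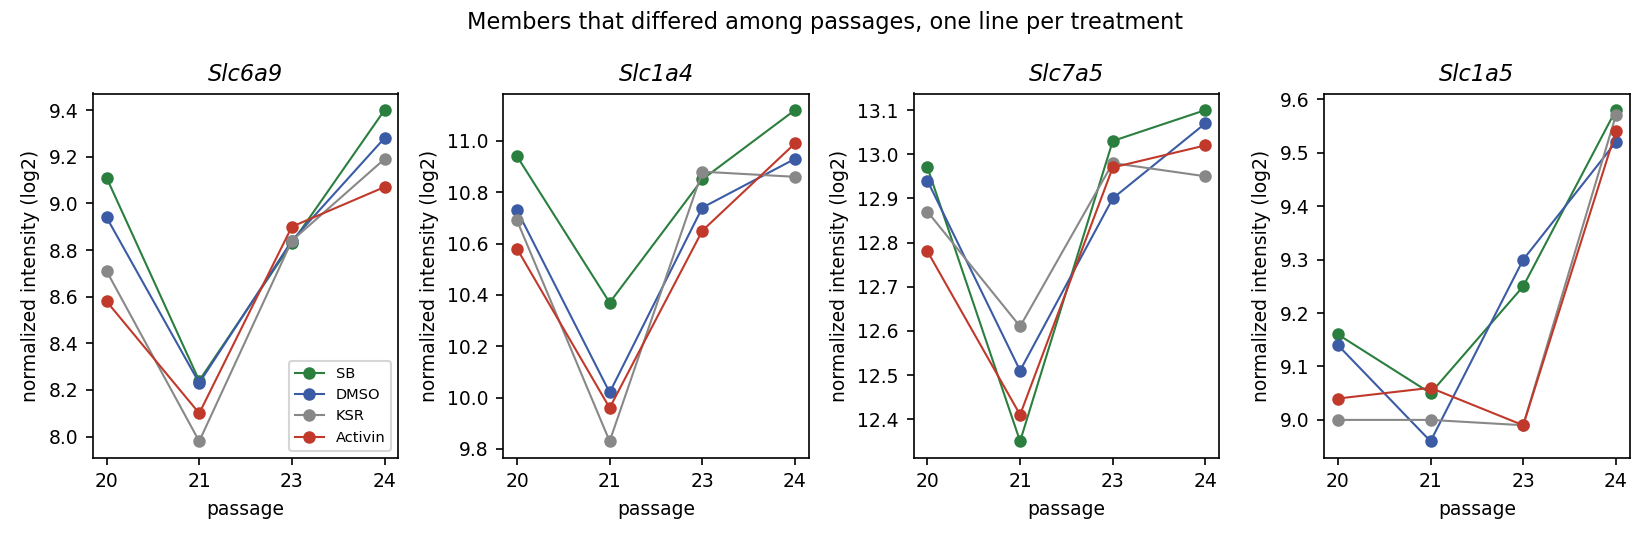
Normalized intensity (log2) of Slc6a9, Slc1a4, Slc7a5 and Slc1a5 against passage, with a line per treatment and a point per culture. Passage 21 is the lowest in all 4 treatments for Slc6a9, Slc1a4 and Slc7a5, and passage 24 is the highest in all 4 for Slc6a9 and Slc1a5.

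Other members peaked elsewhere. The taurine carrier Slc6a6 was highest at passage 21 in all 4 groups (12.22, 12.45, 12.24 and 12.34) and lowest at passage 20 (11.93, 12.02, 11.99 and 11.90), with an adjusted p of 0.0202 among passages. Slc43a3 was highest at passage 23 in all 4 groups (8.79, 8.48, 8.51 and 8.65, adjusted p = 0.00439). Slc6a15 differed among passages too (adjusted p = 0.0118), with means of 7.46, 7.81, 7.56 and 7.73, whereas Slc7a7 did not pass (adjusted p = 0.562).

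Genes of the amino acid response that lie outside the transporter families moved in the same cultures. Of 33 listed Atf4 targets and related genes 28 were measured, and 0 of them passed in a treatment comparison. Among passages 21 of them differed, beside 7.17% of all probes. In passage 24, 16 were higher and 0 lower, with a median change of 0.30 against -0.003 for all probes. Over all probes 2.73% were higher and 2.25% lower. Chac1, which degrades glutathione, was higher by 1.26 (2.40-fold, adjusted p = 5.02e-10), and Asns, asparagine synthetase, by 0.49 (adjusted p = 3.56e-05). Atf4 itself was higher by 0.34 (adjusted p = 0.00189), with passage means of 11.99, 11.58, 11.92 and 12.17.

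In 12 of the 28 genes passage 21 was the lowest in all 4 groups. It was also the lowest for Slc6a9, Slc1a4, Slc7a5 and Slc7a13, the last above background on 0 arrays. The share of all probes with this pattern was not counted, so the count does not set these genes apart. Slc38a2 did not pass among passages (adjusted p = 0.158), and its passage 21 value was the lowest in 1 of 4 groups. The mean level of the list was 9.63 to 9.73 at passage 20, 9.34 to 9.46 at passage 21, 9.57 to 9.72 at passage 23 and 9.96 to 10.02 at passage 24, so passages 21 and 24 did not overlap with the others. Members and list share the same arrays, and their likeness is a description. Of 24 measured genes of amino acid sensing by mTORC1, 0 passed among passages or between treatments. The same held for 18 other amino acid carriers, such as the mitochondrial Slc25 carriers. Over all probes 7.17% differed among passages and fewer between treatments, so counts of 0 in lists this short do not set them apart.

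**Figure D4:**
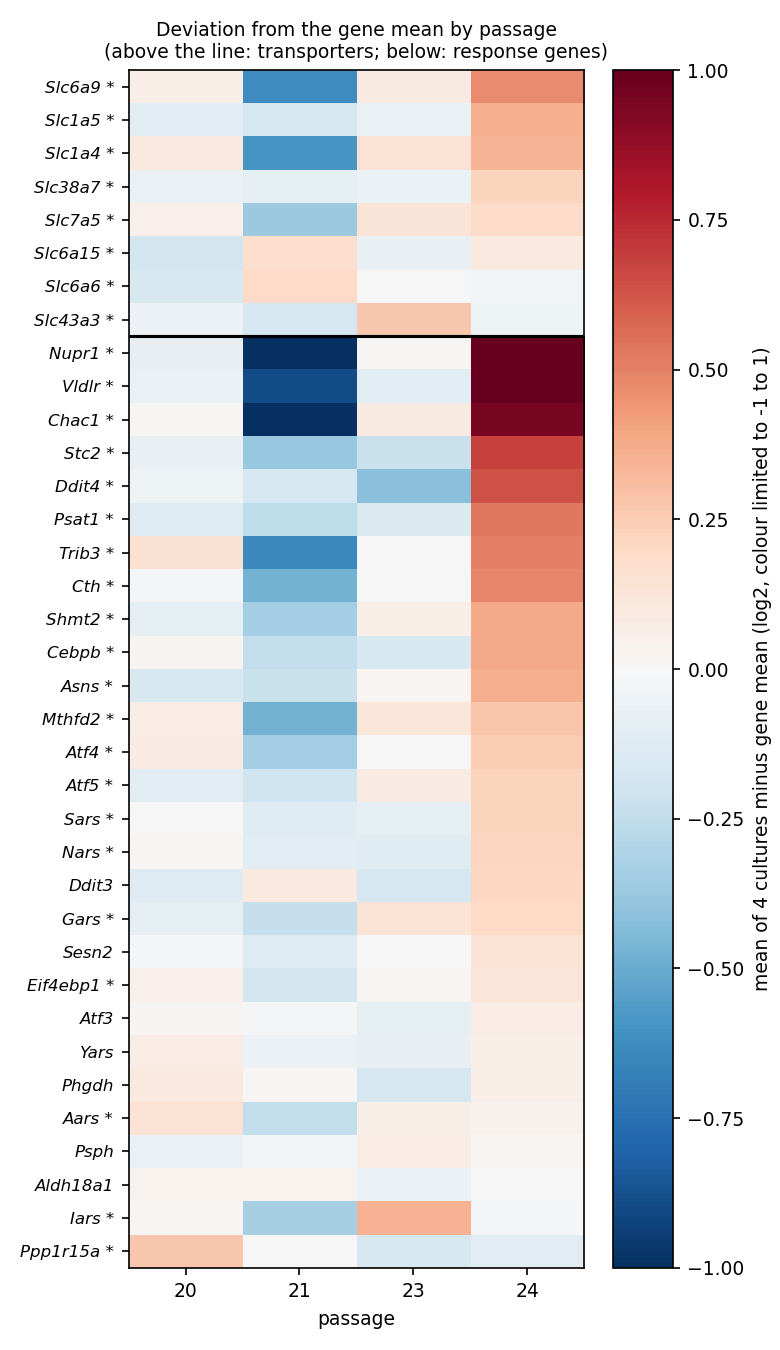
Mean of the 4 cultures of a passage minus the mean of the gene (log2, colour limited to -1 to 1), for the 8 transporter genes above background that differed among passages (above the line) and the 28 response genes (below it). Asterisks mark an adjusted p under 0.05 among passages, and the passage 24 column is above the gene mean for most response genes.

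Primitive endoderm markers also differed among passages, 5 of 8 being higher at passage 24, beside 2.73% of all probes. Dab2 was higher by 1.72 and Gata6 by 0.82. The mean level of that list was 6.98 to 7.11 at passage 20, 6.95 to 7.14 at passage 21, 7.54 to 7.69 at passage 23 and 7.55 to 7.78 at passage 24. Dab2 had passage means of 8.21, 8.15, 10.31 and 10.60 and Gata6 of 7.16, 7.02, 8.30 and 8.32, so both were higher at passages 23 and 24. Gata4, above background on all 16 arrays, had means of 8.20, 8.26, 7.93 and 7.92 and did not pass (adjusted p = 0.0529), while Sox17 and Sox7 passed but were above background on 0 arrays. Of the other marker lists 3 of 7 ES cell, 2 of 9 fibroblast and 2 of 10 trophectoderm markers passed among passages. Over all probes 7.17% did so. In passage 24 the fibroblast markers Vim and Col1a1 changed by -0.29 and -0.27 (adjusted p = 0.00516 and 0.0136). Col1a1 was above background on 0 arrays, and the fibroblast markers Fn1 and Thy1 did not pass (adjusted p = 0.144 and 0.686). The mean intensity over an array was 607 to 653 at passage 20, 486 to 669 at passage 21, 667 to 721 at passage 23 and 691 to 760 at passage 24. The part of these in the passage differences of the transporters was not tested.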

How the data were processed

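RNA of 16 cultures was labelled and hybridised to MouseRef-8 v2.0 BeadChips. The deposited non-normalized values are intensities from which the authors subtracted a background in BeadStudio (version not given in the sources used here), and they are not scaled between arrays. The deposited normalized intensities, made by the authors by cross-correlation and floored at 40, were an alternative. Here the non-normalized intensities were corrected with normexp (offset 50), quantile normalized and put on the log2 scale with limma 3.58.1 in R 4.3.3. All 16 arrays entered a model with 4 group means (lmFit and eBayes, two-sided, 12 residual degrees of freedom), and passages were tested in a model of passage and group. Benjamini-Hochberg adjustment ran over 24606 probes, with a threshold of 0.05. The fits were tested on simulated log2 values with independent noise for each array. Background correction, normalization and correlation between arrays of a passage were not part of that simulation. Depth is not defined for arrays, and the number of arrays limits the precision (median residual SD 0.138). The members and lists were chosen with earlier results of these data known.

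The 4 groups share passage numbers from the labels, and arrays of the same number pair. With group means removed, same-passage arrays correlated with r from 0.0977 to 0.325 over probes (median 0.216, 24 pairs). Arrays that differed in both passage and group correlated with r from -0.238 to 0.0995 (72 pairs). For 16 of 16 arrays the highest correlation was with another array of that passage. Passage as a block was therefore run as an alternative, beside other normalizations, offsets, filters and left-out arrays.

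Named members are Slc6a15 and Slc7a7, all members called with a treatment, the 8 highest by intensity, those with the 4 largest rises and falls in each comparison with SB or Activin, and the 6 with the smallest p among passages. Slc38a7, Slc38a5, Slc38a9, Slc1a1, Slc7a1, Slc7a2, Slc7a11, Slc7a13, Slc16a10 and Slc36a2 lie outside this rule and were chosen after their values were seen. Promoter windows are from RefSeq (GRCm38.p6) and were held for 42 of 59 members.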

Additional observations from a re-analysis of the deposited data

Results flagged for a closer look

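In 18 named members, 72 sets of 4 cultures were searched for a single culture far from the others, and 3 were found. Chance alone gives about 1 in 20 such sets a culture of this kind. Slc1a3 stood at 9.26 in the KSR culture of passage 21, with the other KSR cultures at 8.99 to 9.00. Slc1a5 stood at 9.54 in the Activin culture of passage 24, against 8.99 to 9.06 in the other Activin cultures. In the KSR culture of passage 24 Slc1a5 stood at 9.57, against 8.99 to 9.00. The SB and DMSO cultures of passage 24 were also the highest of their groups for Slc1a5.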

How the results depend on the processing

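Of 9 gene results past the threshold, 143 alternatives left 119 calls in place and ended 24, and 0 turned the direction. Not counted there are 6 values from other probes of Slc7a7 and Slc6a15, all below background, of which 0 passed. The count of members called in SB minus DMSO fell from 2 to 1 with the authors' normalized values and with intensities floored at 16, and ran from 1 to 2 as arrays were left out. In Activin minus SB it was 3, 2 with the authors' values, the floor, an offset of 16 or arrays centred on medians, 8 with passage as a replicate block, and 2 to 4 as arrays were left out. Over all probes those 4 settings called 37 to 51 in SB minus DMSO, against 76 (150 with the block), and 123 to 168 in Activin minus SB, against 221 (438 with the block). The block changed no call in the other treatment comparisons. The passage 24 count was 6, 10 with arrays centred on their medians (8 higher and 2 lower, and over all probes 2709 higher and 218 lower against 671 and 553), 3 without the Activin group, 3 without the DMSO group, and 5 to 6 without a passage. The count among passages was 10, 4 without the Activin or the SB group, 6 without the DMSO or the KSR group, and 5 to 8 without a passage, the lowest without passage 21 and without passage 24. Fits with arrays, a group or a passage left out hold fewer arrays. Their calls over all probes are not given here, so the member counts cannot be set beside a share of the array. Otherwise the cause was not tested. The chip as a block was not run, since no chip is given in the sources used here. With 4 arrays a group, and 2 of 4 SB arrays above background for Slc6a15, signal over background limits the size of its fold.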
